A study of Mus musculus with 2 samples.

Results

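The genes described here encode enzymes that build fatty acids and enzymes that burn them: 36 mouse genes for fatty acid synthesis, desaturation and elongation, acyl-CoA activation, the carnitine shuttle and beta-oxidation. They were chosen by name, as a list of enzymes drawn up with earlier results of these data known, and all 36 were found among the 22838 genes of the deposited table. The values come from mRNA sequencing of NIH3T3, an established mouse fibroblast line. The ALA group is 1 library from cells given 100 µM ALA for 16 h, and the untreated group is 1 library from cells without ALA. Both libraries come from the same line, and no other agent or genetic change is named in the labels. ALA is not spelled out there. In heme research these letters stand for δ-aminolevulinic acid, a heme precursor, and in lipid research for α-linolenic acid, a fatty acid. The series title concerns heme.

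Fatty acid synthesis starts in the cytosol, where acetyl-CoA carboxylase makes malonyl-CoA and fatty acid synthase joins such units into palmitate. Elongases and desaturases of the endoplasmic reticulum then lengthen the chain and add double bonds. For oxidation, an acyl-CoA synthetase first activates the fatty acid and the carnitine shuttle carries it into the mitochondrion. There each round of beta-oxidation consists of a dehydrogenation, a hydration, a second dehydrogenation and a thiolysis. Malonyl-CoA, the first product of synthesis, inhibits the entry step of the shuttle. No cell type or tissue other than these fibroblasts was measured here.

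The values are FPKM, fragments per kilobase of transcript scaled to the mapped reads of a library, which are per length and can therefore be set side by side between genes. Log2 ratios were taken of ALA over untreated after 1 FPKM was added to both, so those of weakly expressed genes are too small in size. Folds are quotients of the FPKM values with nothing added. Counts of genes past a fold use the log2 ratio. A gene is called measured when its mean over both libraries was at least 1 FPKM, which 10929 genes reached. With 1 library per group, no difference between the groups can be tested, no p-value is given, and a difference between cultures cannot be told apart from an effect of ALA. Depth is not given in the table. The weakly marked steps between low values correspond to roughly 31800000 reads in the ALA library and 22000000 in the untreated library. Intervals in brackets are approximate 95% counting intervals of the log2 ratio from these depths, and they cover counting error only. Of the 6 fibroblast markers all were measured and all were lower with ALA, with log2 ratios of -0.64 to -0.10, and all 6 stayed below 0 when both libraries were scaled to equal FPKM totals. Their part in the other results was not tested. Their summed level was 4690 FPKM in the ALA library and 5380 FPKM in the untreated library. All 6 adipocyte markers, among them Adipoq and Plin1, were listed at 0 in both libraries. The hepatocyte, muscle, macrophage and epithelial lists each summed to at most 2.21 FPKM in the ALA library and 1.95 FPKM in the untreated library, with Alb, Myod1 and Epcam at 0 in both. The macrophage list was the one higher with ALA in all 4 markers, each of which averaged below 1 FPKM. Its sum was 2.21 FPKM in the ALA library and 0.604 FPKM in the untreated library. Among them Cd68 had 1.40 FPKM with ALA and 0.237 FPKM untreated, and Ptprc 0.754 FPKM with ALA and 0.367 FPKM untreated. Adgre1, listed as Emr1, had about 1 read and Csf1r about 7 reads with ALA, both 0 in the shallower untreated library. The part of these markers was not tested either. In bulk RNA, fewer cells of a type and less RNA per cell cannot be told apart.

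The fatty acid genes differed little between the libraries. Of the 36 genes, 33 were measured, each with at least 5 FPKM on average, and the other 3, Acacb, Cpt1b and Cpt1c, were below 1 FPKM in both libraries. Of the 33, 1 gene (Acads) was at least 1.5-fold higher with ALA, against a background of 5.9% of all measured genes. No gene was at least 1.5-fold lower, against a background of 7.16%. Among the 8607 genes averaging 5 FPKM or more, as all 33 do, 4.05% were 1.5-fold higher and 5.19% lower. Of all measured genes 13.1% were 1.5-fold apart in either direction. None of the 33 was 2-fold higher, against 1.49% of all measured genes, or 2-fold lower, against 2.01%, which makes 3.5% in either direction. With both libraries scaled to equal FPKM totals, the share of all measured genes was 7.77% for 1.5-fold higher and 5.76% for 1.5-fold lower, and Acads was still the only one of the 33. Within 1.25-fold lay 26 of the 33, or 78.8%, against 65.6% of all measured genes and 70.6% of the 8607 genes averaging 5 FPKM or more. The log2 ratio was above 0 for 19 genes and below 0 for 14, while 47.8% of all measured genes were above 0 and 52.2% below. With equal FPKM totals 22 were above 0 and 11 below. The median log2 ratio was 0.03 over the 33 genes and -0.02 over all measured genes.

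These are genes of middle to high abundance. Their median level was 28.99 FPKM, the mean of both libraries, against 13.7 FPKM for all measured genes, and 29 of the 33 lay above that second value. The most abundant was Scd2, followed by Etfa, Scd1, Etfb and Hadh, and the least abundant of the measured were Crat, Elovl6, Acaa1a and Acads. Summed over all 36 genes, the level was 1419 FPKM with ALA and 1454 FPKM untreated. That is 0.277% of all FPKM in the ALA library and 0.269% in the untreated library, so the share of the message was nearly the same in both.

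**Figure D1:**
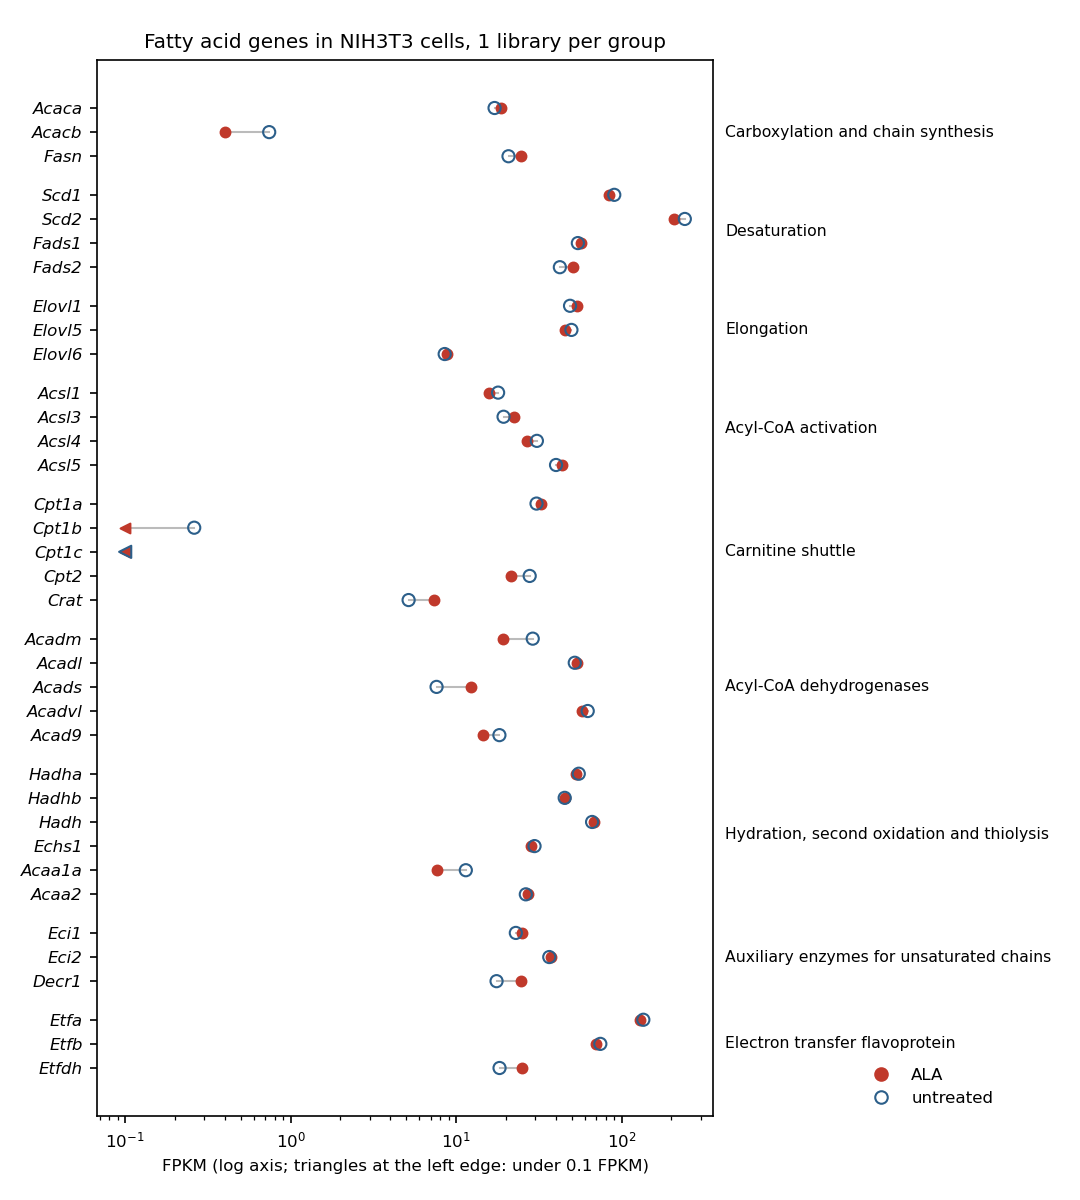
FPKM of each of the 36 genes on a log axis, grouped by enzymatic role, with filled red points for the ALA library and open blue points for the untreated library. Most pairs of points nearly coincide, and the widest gaps among measured genes are those of Acads, Acadm and Acaa1a. Both points of Cpt1c and the ALA point of Cpt1b sit at the left edge, for values under 0.1 FPKM. The untreated point of Cpt1b is at 0.261 FPKM.

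**Figure D2:**
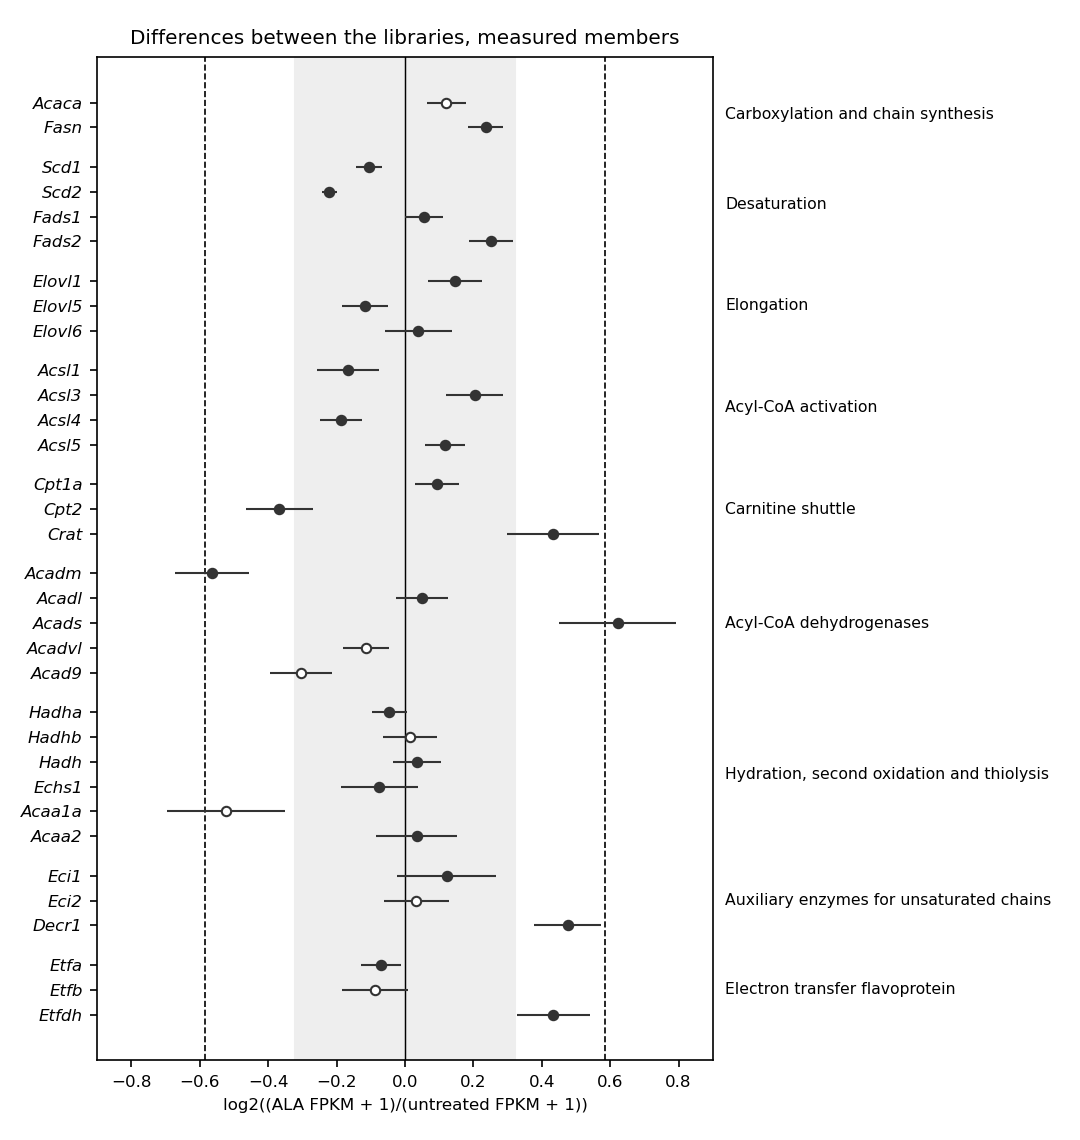
Log2 ratio of ALA over untreated for the 33 measured genes, with bars for the approximate 95% counting interval, grey shading for 1.25-fold and dashed lines at 1.5-fold. Open points mark the 7 genes with at least 10% of their sequence shared with or overlapping another gene; only the point of Acads lies beyond a dashed line.

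At the first committed step, Acaca, the cytosolic acetyl-CoA carboxylase, had 18.6 FPKM with ALA and 17.1 FPKM untreated, a log2 ratio of 0.12 [0.06 to 0.18]. Of the Acaca sequence, 31.8% of 41-base stretches, the length of a read, also occur in other genes, first among them Gm5182. Acacb, the carboxylase on the outer mitochondrial membrane whose malonyl-CoA acts on the shuttle, had 0.401 FPKM with ALA and 0.742 FPKM untreated. Acaca thus made up 97.9% of carboxylase message in the ALA library and 95.8% in the untreated library. Fasn, the fatty acid synthase that builds palmitate, had 24.6 FPKM with ALA and 20.7 FPKM untreated, a log2 ratio of 0.24 [0.19 to 0.29]. Both measured genes of this step were slightly higher with ALA, and both remained so with equal FPKM totals.

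Among the desaturases, the stearoyl-CoA desaturases and the polyunsaturated desaturases lay on opposite sides of 0, with Fads1 close to 0. Scd2, a stearoyl-CoA desaturase that makes oleate-type chains, was the most abundant of the 36 genes, with 207 FPKM in the ALA library and 241 FPKM in the untreated library. Its log2 ratio was -0.22 [-0.24 to -0.20]. Scd1, the second such enzyme, had 83.8 FPKM with ALA and 90.3 FPKM untreated, a log2 ratio of -0.11 [-0.14 to -0.07]. Scd2 held 71.0% of the summed message of Scd1 to Scd4 in the ALA library and 72.7% in the untreated library, so the makeup of the family was nearly the same. Scd1 shares 6.08% of its 41-base stretches with other genes, first Scd3, and Scd2 5.18%, first with Scd1.

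Fads2, which carries out the first desaturation of essential fatty acids, had 50.6 FPKM with ALA and 42.4 FPKM untreated, a log2 ratio of 0.25 [0.19 to 0.32]. Fads1, which acts later on the same chains, had 56.5 FPKM with ALA and 54.4 FPKM untreated. Its log2 ratio was 0.05 [-0.001 to 0.11], an interval that includes 0. With equal FPKM totals both Scd genes remained lower, Scd2 at -0.14 and Scd1 near level at -0.03. Both Fads genes remained higher, Fads2 at 0.33 and Fads1 at 0.13. All 4 were within 1.25-fold in the unscaled values.

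The elongases were also close between the libraries. Elovl1, which extends saturated and monounsaturated very long chains, had 54.1 FPKM with ALA and 48.8 FPKM untreated (log2 ratio 0.15). Elovl5, which extends polyunsaturated chains, had 45.8 FPKM with ALA and 49.7 FPKM untreated (-0.12), and Elovl6, which turns palmitate into stearate, had 8.78 FPKM with ALA and 8.53 FPKM untreated (0.04). Summed over Elovl1 to Elovl7, the level was 113.5 FPKM with ALA and 113.4 FPKM untreated, and within this sum Elovl1 held 47.7% with ALA and 43.0% untreated. Elovl2 and Elovl3 were listed at 0 in both libraries.

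Long-chain acyl-CoA synthetases activate fatty acids for either fate, and their members offset each other. Acsl3, found on the endoplasmic reticulum and lipid droplets, had 22.4 FPKM with ALA and 19.3 FPKM untreated (log2 ratio 0.20). Acsl5, found on mitochondria and the endoplasmic reticulum, had 43.6 FPKM with ALA and 40.2 FPKM untreated (0.12). Both were higher in the ALA library. Acsl4, which prefers arachidonate, had 26.9 FPKM with ALA and 30.8 FPKM untreated (-0.19), and Acsl1, the main form of fat and muscle, had 15.9 FPKM with ALA and 17.9 FPKM untreated (-0.17). With Acsl6, the family summed to 108.8 FPKM with ALA and 108.2 FPKM untreated. Acsl5 was the largest share in both, at 40.1% with ALA and 37.1% untreated.

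In the carnitine shuttle, the entry enzyme was nearly level while the exit enzyme was lower. Cpt1a, the carnitine palmitoyltransferase of the outer mitochondrial membrane in most tissues, had 32.7 FPKM with ALA and 30.6 FPKM untreated, a log2 ratio of 0.09 [0.03 to 0.16]. Cpt2, which releases the acyl chain from carnitine at the inner membrane, had 21.3 FPKM with ALA and 27.8 FPKM untreated, which is 1.30-fold lower (-0.37 [-0.47 to -0.27]). The ratio of Cpt1a to Cpt2 FPKM was 1.53 in the ALA library and 1.10 in the untreated library. Crat, carnitine acetyltransferase, which handles acetyl and other short groups, had 7.32 FPKM with ALA and 5.16 FPKM untreated, 1.42-fold higher (0.43 [0.30 to 0.57]).

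The muscle form Cpt1b had 0.000244 FPKM with ALA and 0.261 FPKM untreated, about 0 and 17 reads, and 79.1% of its 41-base stretches also occur in other genes, first Gm44502. The brain form Cpt1c was listed at 0 in both libraries. Cpt1a accounted for over 99% of Cpt1 message in both libraries.

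The widest differences lay among the acyl-CoA dehydrogenases, which are split by chain length. Acads, the short-chain dehydrogenase, had 12.3 FPKM with ALA and 7.62 FPKM untreated, about 729 and 313 reads. It was 1.61-fold higher, with a log2 ratio of 0.62 [0.45 to 0.79], the highest of the measured genes in the set. Acadm, the medium-chain dehydrogenase, had 19.3 FPKM with ALA and 29.03 FPKM untreated, about 1257 and 1308 reads. It was 1.504-fold lower, with a log2 ratio of -0.56 [-0.67 to -0.46], the lowest of the set and just short of 1.5-fold on the log2 scale with the added 1. The ratio of Acads to Acadm FPKM was 0.635 in the ALA library and 0.262 in the untreated library. The short-chain and medium-chain genes therefore lay on opposite sides of 0.

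Acadl and Acadvl, which take longer chains, were closer to level. Acadl, the long-chain dehydrogenase, had 54.0 FPKM with ALA and 52.1 FPKM untreated (0.05). Acadvl, the very-long-chain dehydrogenase, had 57.6 FPKM with ALA and 62.4 FPKM untreated (-0.11). Acad9, a family member required to assemble respiratory complex I, was lower with ALA and had 14.6 FPKM with ALA and 18.3 FPKM untreated (-0.30 [-0.40 to -0.21]). Of the Acadvl exon bases 42.9% lie inside Dvl2 on the opposite strand, and 16.9% of the 41-base stretches of Acad9 occur in other genes, so their values are uncertain. Of the message of these 5 genes, Acadvl made up 36.5% with ALA and 36.8% untreated, and Acadl 34.2% with ALA and 30.8% untreated. Acads made up 7.77% with ALA and 4.496% untreated, and Acadm 12.2% with ALA and 17.1% untreated.

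Acads lies on the minus strand of chromosome 5 at 115110299 to 115119346 and Acadm on the minus strand of chromosome 3 at 153922357 to 153944632, in build GRCm38 (mm10), as annotated by GENCODE vM21. Their promoters are shown because these are the highest and the lowest gene of the set; Acadm was added after its value was seen. The sequences are the RefSeq windows of build GRCm38.p6 from 250 bases before to 50 bases after the annotated start, at chr5:115119297-115119596 for Acads and chr3:153944594-153944893 for Acadm, both minus strand, written 5′ to 3′. Capitals mark matches to GCGTG on either strand, the core of hypoxia response elements, the only one of 7 searched motifs found in either window.
Acads: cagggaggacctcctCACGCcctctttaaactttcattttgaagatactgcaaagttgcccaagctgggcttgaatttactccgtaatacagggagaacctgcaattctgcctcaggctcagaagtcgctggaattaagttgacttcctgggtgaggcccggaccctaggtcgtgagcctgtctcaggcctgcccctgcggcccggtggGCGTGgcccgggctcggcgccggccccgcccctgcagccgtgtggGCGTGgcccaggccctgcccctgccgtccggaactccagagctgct
Acadm: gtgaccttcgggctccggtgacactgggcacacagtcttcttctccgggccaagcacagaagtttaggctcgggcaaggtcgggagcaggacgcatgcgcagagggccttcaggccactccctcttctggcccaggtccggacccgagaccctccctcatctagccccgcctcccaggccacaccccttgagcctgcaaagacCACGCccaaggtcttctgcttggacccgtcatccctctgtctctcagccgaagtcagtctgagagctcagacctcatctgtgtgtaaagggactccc
The Acads window holds 3 such matches and the Acadm window 1. Both windows are rich in G and C, at 62.7% and 62.3%.

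Most enzymes of the later oxidation steps had nearly equal levels. Hadha and Hadhb encode the subunits of the mitochondrial trifunctional protein, which carries out hydration, second dehydrogenation and thiolysis of long chains. Hadha had 53.3 FPKM with ALA and 55.1 FPKM untreated (log2 ratio -0.05, but 0.03 with equal FPKM totals), and Hadhb had 45.8 FPKM with ALA and 45.3 FPKM untreated (0.01). The ratio of the subunits was 1.17 with ALA and 1.22 untreated. Hadhb shares 21.2% of its 41-base stretches with other genes, first Gm13910.

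The trifunctional protein genes are neighbours on chromosome 5 that point away from each other, with GENCODE starts 86 bases apart. The RefSeq Hadhb window, chr5:30155003-30155302 on the plus strand, spans the stretch between them. It is shown because both GENCODE starts lie in it, and it was chosen after the values were seen. The RefSeq window of Hadha is chr5:30154931-30155230 on the minus strand, so the RefSeq start of Hadha lies outside the Hadhb window. Capitals mark the only match to a searched motif, GCGTG.
Hadhb: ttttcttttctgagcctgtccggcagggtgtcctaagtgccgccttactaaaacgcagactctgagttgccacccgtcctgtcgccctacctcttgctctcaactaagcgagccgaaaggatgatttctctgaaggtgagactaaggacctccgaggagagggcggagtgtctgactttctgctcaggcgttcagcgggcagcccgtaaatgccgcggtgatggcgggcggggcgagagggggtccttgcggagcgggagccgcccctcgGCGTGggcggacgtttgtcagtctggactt
The match begins at position 21 of the transcribed part, counted from the RefSeq start of Hadhb.

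Hadh, the short-chain hydroxyacyl-CoA dehydrogenase, had 68.0 FPKM with ALA and 66.3 FPKM untreated (0.04), and Echs1, the short-chain enoyl-CoA hydratase, had 28.2 FPKM with ALA and 29.8 FPKM untreated (-0.08, but 0.00 with equal FPKM totals). Acaa2, the mitochondrial thiolase, had 27.0 FPKM with ALA and 26.4 FPKM untreated (0.03). The exception was Acaa1a, the thiolase of peroxisomes and so the only enzyme of this step outside mitochondria. It had 7.66 FPKM with ALA and 11.4 FPKM untreated, 1.49-fold lower (-0.52 [-0.70 to -0.35]). Acaa1a shares 19.7% of its 41-base stretches, first with its near copy Acaa1b, and overlaps Myd88 on the opposite strand over 6.57% of its exons, so this value is uncertain.

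Of the enzymes that oxidation of unsaturated chains needs in addition, Decr1 stood out in size. Decr1, the mitochondrial dienoyl-CoA reductase, had 24.8 FPKM with ALA and 17.6 FPKM untreated, 1.41-fold higher (0.48 [0.38 to 0.57]). The enoyl-CoA isomerases were closer to level: Eci1 had 25.1 FPKM with ALA and 22.9 FPKM untreated (0.12), and Eci2 had 37.4 FPKM with ALA and 36.5 FPKM untreated (0.03). All 3 were above 0, also with equal FPKM totals. Eci2 shares 13.7% of its 41-base stretches with other genes.

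Electrons from the dehydrogenases pass to the electron transfer flavoprotein and from it, through a dehydrogenase in the inner membrane, to ubiquinone. The flavoprotein subunits were among the most abundant genes of the set and were near level. Etfa had 129 FPKM with ALA and 135 FPKM untreated (log2 ratio -0.07, but 0.01 with equal FPKM totals), and Etfb had 69.9 FPKM with ALA and 74.4 FPKM untreated (-0.09). Their ratio was 1.84 with ALA and 1.82 untreated, although 47.2% of the 41-base stretches of Etfb occur in other genes. Etfdh, the membrane dehydrogenase, an iron-sulfur flavoprotein, had 25.1 FPKM with ALA and 18.3 FPKM untreated, 1.37-fold higher (0.43 [0.33 to 0.54]).

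**Figure D3:**
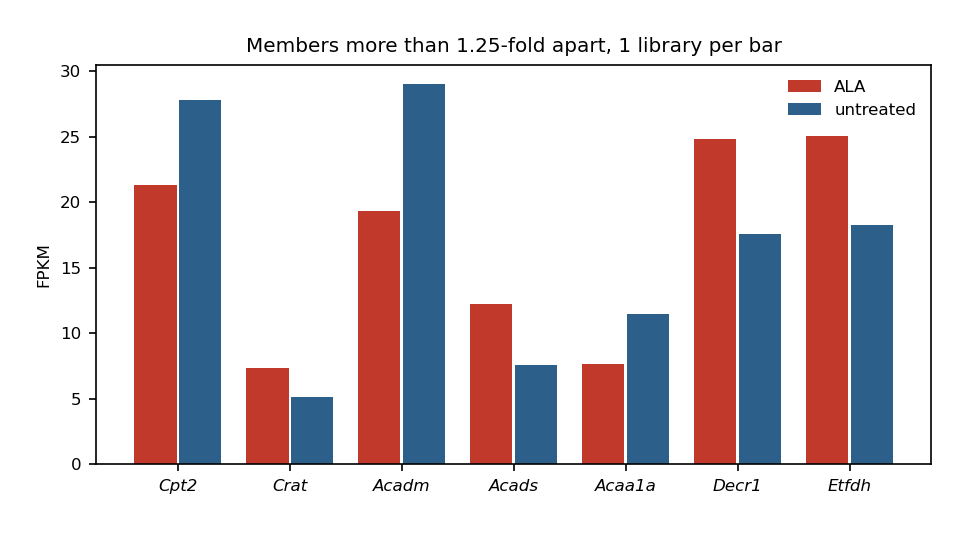
FPKM in the ALA library (red) and the untreated library (blue) for the 7 genes more than 1.25-fold apart on the log2 scale with the added 1, 1 library per bar and no error bars. Crat, Acads, Decr1 and Etfdh are higher in the ALA library, and Cpt2, Acadm and Acaa1a are lower.

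All 7 genes more than 1.25-fold apart belong to the carnitine shuttle and beta-oxidation, 4 of them higher with ALA and 3 lower. Of the 20 measured shuttle and oxidation genes, 13 were within 1.25-fold, or 65.0%. The share was 65.6% of all measured genes and 70.6% of the 8607 genes averaging 5 FPKM or more. Acad9 lay just inside, 1.251-fold lower by FPKM alone. All 13 measured genes for synthesis, desaturation, elongation and activation were within 1.25-fold in the unscaled values. Their largest log2 ratio in size was the 0.253 of Fads2. With equal FPKM totals Fads2 was at 0.33, past 1.25-fold. The median log2 ratio was 0.05 over the 9 measured synthesis, desaturation and elongation genes and 0.02 over the 20 oxidation genes. Synthesis, desaturation and elongation genes summed to 550 FPKM with ALA and 574 FPKM untreated, and oxidation genes to 760 FPKM with ALA and 773 FPKM untreated. As shares of all FPKM the order was the other way, at 0.107% with ALA and 0.106% untreated for synthesis, and 0.148% with ALA and 0.143% untreated for oxidation. Whether the spread differs between the sides was not tested. Counting intervals excluded 0 for 22 of the 33 genes, 11 above and 11 below, at 313 to 35840 reads per gene and library. The share over all measured genes was not computed, so this count cannot be read as a trait of the set. It also holds for the unscaled values only. With equal FPKM totals Etfa, among those below 0, was at 0.01. Others among those below 0 moved near it, such as Scd1 at -0.03 and Elovl5 and Acadvl at -0.04. Fads1 and Hadh, whose intervals included 0, moved up to 0.13 and 0.11. Intervals were not computed with equal FPKM totals. The variation between cultures was not measured.

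**Figure D4:**
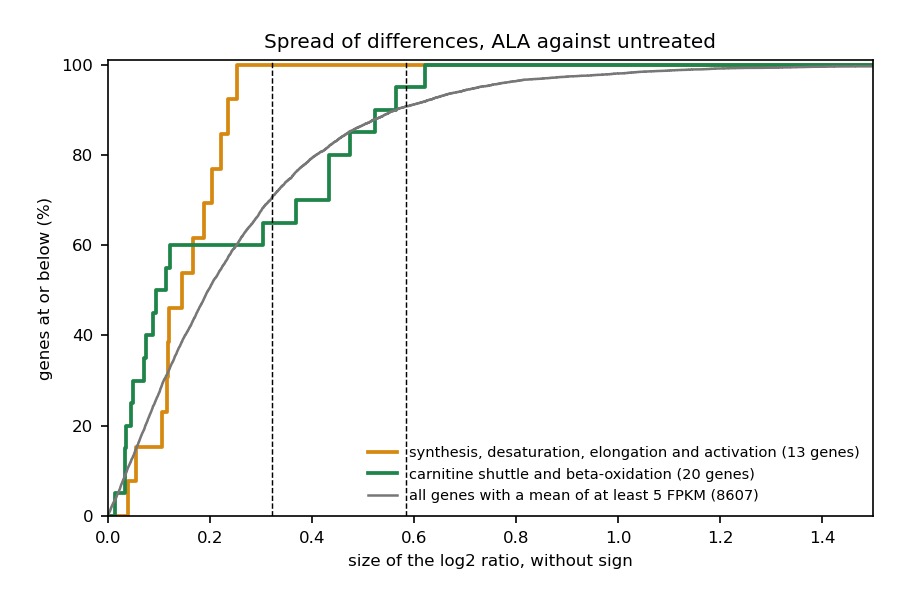
Cumulative share of genes (vertical axis, %) by the size of the log2 ratio without sign, for 13 synthesis, desaturation, elongation and activation genes, 20 shuttle and oxidation genes, and all 8607 genes averaging 5 FPKM or more; dashed lines mark 1.25-fold and 1.5-fold. The first curve reaches 100% before the 1.25-fold line, and the second crosses the curve of all genes.

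RefSeq promoter windows were found for 28 of the 36 genes, 30 windows in all. None was found for Scd1, Scd2, Fads1, Cpt1b, Crat, Acad9, Acaa2 and Decr1, so these genes were not searched. Motifs were counted on both strands of the 30 windows, with the share in all 32851 windows beside each. GCGTG was found in 60.0% of these windows against 32.4% of all, and CCAAT in 50% against 37.4%. The windows were also richer in G and C, with a median of 60.5% against 52.7%, and the part of this difference in the motif shares was not tested. ACGTG, the other hypoxia element core, was in 13.3% against 19.6%. The E-box CACGTG, which contains ACGTG, was in 3.33% against 7.15%, in Elovl5 alone. The sterol regulatory element TCACNCCAC was found in 1 window, of Acsl1, which is 3.33% against 1.24% of all. The antioxidant element TGACNNNGC was in none, against 12.4% of all windows, and the direct repeat bound by PPAR receptors in none, against 0.0396%. A match is a run of letters and not evidence of binding.

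By position, 6 of the 36 genes lie on chromosome 19, namely Scd1, Scd2, Fads1, Fads2, Cpt1a and Acsl5. Scd1 and Scd2 start 114205 bases apart, and Fads1 and Fads2 start 81142 bases apart. Within each of these pairs both genes had a log2 ratio of the same sign. The closer neighbours Hadha and Hadhb on chromosome 5 had opposite signs, at -0.05 and 0.01, but 0.03 and 0.09 with equal FPKM totals. Whether neighbours differ alike was not tested.

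Genes around the pathway were read from 8 related lists with 119 names, of which 118 were in the table and 87 were measured. Of these 87, 6 reached 1.5-fold in the upward direction and 7 in the downward direction, against 5.9% and 7.16% of all measured genes. With equal FPKM totals these counts were 7 and 5, against 7.77% and 5.76%. The median log2 ratio was -0.02, with 41 genes above 0 and 46 below, but 54 above and 33 below with equal FPKM totals. Some lists held individual genes with larger differences than any of the 33.

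No measured regulator was 1.5-fold apart, against 13.1% of all measured genes. Srebf1 and Srebf2, the factors that drive lipid synthesis genes, were at log2 ratios of 0.02 and 0.12. Of 13 measured regulators, 6 were above 0 and 7 below, also with equal FPKM totals. The largest was Scap, the escort protein of the SREBP factors, with 20.2 FPKM in the ALA library and 14.03 FPKM in the untreated library (0.50), and Scap shares 10.6% of its 41-base stretches. Ppard, a fatty acid receptor that drives oxidation genes, had 22.4 FPKM with ALA and 17.8 FPKM untreated (0.32). Nr1h2, a liver X receptor, and Mlx, a partner of the glucose-sensing factor ChREBP, were both at -0.36, and 19.3% of the Mlx exons overlap Psmc3ip on the opposite strand. Ppara, Pparg and Mlxipl, the last of which encodes ChREBP, were listed at 0 in both libraries.

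Among the 9 measured genes that supply acetyl-CoA, malonyl-CoA and NADPH, 1 was 1.5-fold higher, against 5.9% of all measured genes, and none 1.5-fold lower, against 7.16%. That gene, Mlycd, encodes malonyl-CoA decarboxylase, which removes the inhibitor of the shuttle, and had 2.76 FPKM with ALA and 1.475 FPKM untreated (0.60). Acat1, the mitochondrial acetoacetyl-CoA thiolase, was at 0.45, Slc25a1, the citrate carrier, at 0.37 and Me2, the mitochondrial malic enzyme, at -0.45. Acly, which cleaves citrate to acetyl-CoA, was at 0.21.

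The list for the mitochondrion's own fatty acid synthesis and for lipoate, the cofactor made from its product, had the highest median of the 8 (0.63 over 8 measured genes). Of these, 5 were above 0, 4 of them by 1.5-fold or more, against 5.9% of all measured genes, and 1 of the 3 below 0 was 1.5-fold lower, against 7.16%. Oxsm, the ketoacyl synthase of the mitochondrion, had 5.07 FPKM with ALA and 1.66 FPKM untreated, a log2 ratio of 1.19 [1.01 to 1.37]. Lias, the iron-sulfur enzyme lipoyl synthase, had 21.6 FPKM with ALA and 13.0 FPKM untreated (0.69). Lipt2, which transfers the octanoyl chain, had 2.64 FPKM with ALA and 1.202 FPKM untreated (0.72), and Lipt1, which passes lipoate to its target enzymes, had 3.57 FPKM with ALA and 1.79 FPKM untreated (0.71). Lipt1 overlaps Mitd1 on the opposite strand, so its value is uncertain. Cbr4, a subunit of the ketoacyl reductase of this pathway, was at -0.66. With a pseudocount of 5 FPKM only 1 of the list remained 1.5-fold higher, against 1.78% of all measured genes. The median was then 0.32, as several of these genes have low values.

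In the list for uptake, binding and carnitine transport, 2 of 7 measured genes were at least 1.5-fold lower, against 7.16% of all measured genes, and none 1.5-fold higher, against 5.9%. Slc27a4, a fatty acid transport protein with acyl-CoA synthetase activity, had 4.75 FPKM with ALA and 11.4 FPKM untreated (-1.10). Slc22a5, the plasma membrane carnitine transporter, had 3.52 FPKM with ALA and 7.19 FPKM untreated (-0.86), and shares 30.9% of its 41-base stretches. Fabp5, a fatty acid binding protein, and Dbi, the acyl-CoA binding protein, were higher, at 0.49 and 0.29. Slc25a20, which exchanges acylcarnitine for carnitine across the inner membrane, had 3.78 FPKM with ALA and 4.22 FPKM untreated (-0.13).

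Of 7 other measured elongation and desaturation genes, 6 were below 0, but 5 were above 0 with equal FPKM totals. None of the 7 was 1.5-fold apart, against 13.1% of all measured genes. The widest was Elovl4 at -0.34, followed by Tecr, the last enzyme of the elongation cycle, at -0.11, and the dehydratases Hacd2 and Hacd3, listed as Ptplb and Ptplad1, both at -0.05. Fads6, a desaturase-like gene below the mean of 1 FPKM and so not counted as measured, was listed at 0 with ALA and had 1.46 FPKM untreated. Among 9 other mitochondrial oxidation genes, Gcdh, glutaryl-CoA dehydrogenase, had 8.20 FPKM with ALA and 4.74 FPKM untreated (0.68). It was the only one of the 9 that was 1.5-fold apart, against 13.1% of all measured genes. Acot13, an acyl-CoA thioesterase, was at -0.44, Acad11 at 0.39 and Acad8, the isobutyryl-CoA dehydrogenase, at -0.24.

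Peroxisomal oxidation genes, 14 measured, had a median of 0.03. Of them 1 was at least 1.5-fold lower, against 7.16% of all measured genes, and none with equal FPKM totals, against 5.76%. None was 1.5-fold higher, against 5.9%. The lower one, the thioesterase Acot8, had 4.79 FPKM with ALA and 8.07 FPKM untreated (-0.65) and overlaps Snx21 on the opposite strand. Decr2, the peroxisomal dienoyl-CoA reductase, was at -0.53, where its mitochondrial counterpart Decr1 was at 0.48. Amacr, a racemase for branched chains, was at 0.34.

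Of 20 measured lipid droplet, triglyceride and lipolysis genes, 3 were at least 1.5-fold lower, against 7.16% of all measured genes, and 2 with equal FPKM totals, against 5.76%. None was 1.5-fold higher, against 5.9%. Hilpda, a hypoxia-inducible droplet protein that inhibits lipolysis, had 20.2 FPKM with ALA and 42.7 FPKM untreated (-1.05). Angptl4, a secreted inhibitor of lipoprotein lipase, had 4.81 FPKM with ALA and 8.18 FPKM untreated (-0.66), and Mgll, monoacylglycerol lipase, had 1.87 FPKM with ALA and 3.41 FPKM untreated (-0.62). Gpat3, listed as Agpat9, was at -0.37 and shares 30.6% of its 41-base stretches. The droplet coat gene Plin2 had 75.4 FPKM with ALA and 78.3 FPKM untreated (-0.05), near level.

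**Figure D5:**
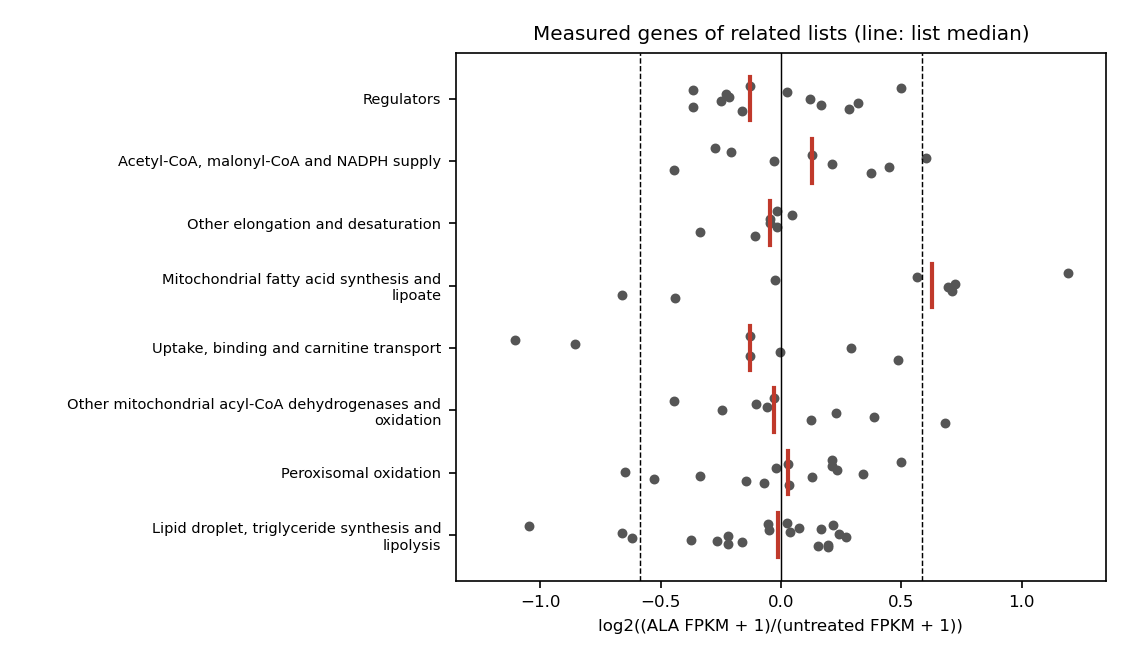
Log2 ratio of ALA over untreated for the measured genes of 8 related lists, 1 point per gene with vertical jitter for legibility, a red line at each list median and dashed lines at 1.5-fold. The median of the mitochondrial fatty acid synthesis and lipoate list is at 0.63, and the other 7 medians lie between -0.13 and 0.13.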

How the data were processed

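Per the labels' protocols, TruSeq mRNA libraries of NIH3T3 cells were sequenced from 1 end to 41 bases. FastQC 0.11.5, TopHat2 2.1.1, Cufflinks 2.2.1 and build mm10 are named per the submitters' processing notes, without roles. What annotation, strand setting and scaling were applied is not given in the sources used here. The deposited values are FPKM per gene, per the file headers, with lower and upper bounds equal in 100% of rows, so they carry no error.

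From these values, log2 ratios with a pseudocount of 1 FPKM were computed for genes averaging 1 FPKM or more (Python 3.11.15, pandas 2.3.3, numpy 2.4.6). No count model was applied to FPKM, and 1 library per group allows no test. Depth was estimated from genes with a single transcript of over 1500 bases, as the number of reads at which FPKM times length comes nearest to whole reads. Values from 25700000 to 33400000 (ALA) and 21000000 to 23200000 (untreated) gave a similar fit, and the fit was weak, with a mean cosine of 0.226 (ALA) and 0.245 (untreated), where 1 would mean whole reads throughout. Reads per gene use the longest coding transcript, so they are approximate. The calculation of calls and depth was run on simulated counts, as a check of the code only. The simulation held no variation between cultures and no planted change near 1.5-fold, so it does not bear on how reliable the calls are. Shared 41-base stretches and exon overlaps come from GENCODE vM21; only exact matches were counted, and all 36 genes matched the table's position. The members and lists were chosen with earlier results of these data known. Every member is named, and of each related list up to 4 measured genes with the largest log2 ratio without sign, plus others chosen after their values were seen; some genes of these lists are not reported here. Promoters were to be shown for up to 4 members at least 1.5-fold apart. Symbols absent from the table were matched through RefSeq synonyms in 6 cases. Pseudocounts of 0.1 and 5 FPKM, no filter, a minimum of 5 FPKM, equal FPKM totals, median centring and leaving out members with 10% or more shared or overlapping sequence were tried. Protein sequences were not analysed here.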

Additional observations from a re-analysis of the deposited data

How the results depend on the processing

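Acads was the only one of the 33 measured genes of the set at least 1.5-fold higher under the main setting and under 6 of 7 alternatives. With a pseudocount of 5 FPKM the count of genes 1.5-fold higher was 0, against 1.78% of all measured genes. With a pseudocount of 0.1 FPKM the count 1.5-fold lower was 1, namely Acadm, against 9.49%. The added constant sets both, as it shrinks ratios of low genes. The counts of genes 2-fold apart were 0 under all 7. The median log2 ratio of the set was 0.03 and ranged from 0.02 with no filter to 0.11 with equal FPKM totals, a scaling that raises the median of all measured genes to 0.05 and takes Hadha, Echs1 and Etfa above 0. Among all measured genes 645 were 1.5-fold higher and 782 lower, but 849 and 629 with equal FPKM totals. No paired analysis was possible because each group has 1 library, and for the same reason no library could be left out. The half-width of the counting interval of the log2 ratio was 0.08 at the median of the measured genes of the set and 0.17 at most, on the weakly fitted depths. The difference between independent cultures was not measured.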
